A study of Mus musculus with 2 samples.

Results

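The miR-29 family was examined in microvesicles (MVs), small vesicles shed into the culture medium, of mouse bone marrow mesenchymal stem cells (MSCs). Its members were all array entries named miR-29a, miR-29b or miR-29c, with both arms of each hairpin included. They came to 7 of the 831 entries, namely the guide arms mmu-miR-29a-3p, mmu-miR-29b-3p and mmu-miR-29c-3p and the passenger arms mmu-miR-29a-5p, mmu-miR-29b-1-5p, mmu-miR-29b-2-5p and mmu-miR-29c-5p, where the prefix stands for mouse and is left out from here on. Of the 2 arrays, 1 held RNA of MVs from MSCs grown for 48 h with 100 IU/ml erythropoietin (EPO-MVs), the hormone that drives red blood cell formation, and 1 held RNA of MVs from MSCs grown for 48 h without it (MSC-MVs). Both cultures had the same DMEM/F12 medium with fetal bovine serum and penicillin/streptomycin, and the MSCs came from 4-week-old male C57BL/6 mice and were used at the third passage. How many mice or cultures stood behind each array is not stated in the sources used here. The question was how EPO changes the miRNA content of the vesicles, whose effect on renal fibrosis was under study. Because each condition had 1 array, no test could be run, and EPO and the array it was measured on cannot be told apart.

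A miRNA is cut from a hairpin precursor with an arm on either side, and the arm that is kept guides the silencing complex to mRNAs that match its seed, bases 2 to 8 from the 5′ end. In the miR-29 family the -3p arm is the usual guide, and the -5p arm is mostly lost. The guides are known to repress mRNAs of extracellular matrix proteins such as collagens, elastin and fibrillin, and TGF-β, the growth factor that drives fibrosis, lowers their level in kidney and other tissues. Neither collagen mRNA nor recipient cells were measured on these arrays.

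The mature sequences of all 7 entries are given here because the shared seed defines the family and because the guides are so alike that the probe of one may bind RNA of another. They are from RefSeq (build GRCm38.p6), 5′ to 3′, with the seed in capitals.
miR-29a-3p: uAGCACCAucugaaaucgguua
miR-29b-3p: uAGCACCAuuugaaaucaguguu
miR-29c-3p: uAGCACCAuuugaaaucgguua
miR-29a-5p: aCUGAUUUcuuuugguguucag
miR-29b-1-5p: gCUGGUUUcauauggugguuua
miR-29b-2-5p: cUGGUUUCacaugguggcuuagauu
miR-29c-5p: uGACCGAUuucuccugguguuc

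The seed AGCACCA was carried by the 3 guides and by no other of the 1679 mouse mature sequences in the RefSeq table. From 1 at the 5′ end, miR-29a-3p and miR-29c-3p differed at 1 of 22 positions (C10U, the base of miR-29a-3p first). The guides miR-29b-3p and miR-29c-3p differed at 3 of the first 22 positions (A18G, G21U and U22A, the base of miR-29b-3p first), and miR-29b-3p was longer by 1 base. The last bases of miR-29b-3p, AGUGUU, are known from human cells as an element that directs miR-29b to the nucleus. On the sense strand, 2 of the 1679 mature sequences ended in these letters, miR-29b-3p and miR-92b-5p, and 12 (0.715%) held them anywhere. The 4 passenger arms had 4 different seeds, since miR-29b-1-5p and miR-29b-2-5p are largely the same sequence but begin 1 base apart.

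The 4 hairpins are shown because 2 of them make the same miR-29b-3p, so that only their passenger arms tell them apart. They are from RefSeq (GRCm38.p6), 5′ to 3′ along the gene's own strand, with both mature arms in capitals.
Mir29a, chr6:31062660-31062747, minus strand: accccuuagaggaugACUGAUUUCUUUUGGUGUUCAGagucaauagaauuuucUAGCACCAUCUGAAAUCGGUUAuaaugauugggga
Mir29b-1, chr6:31063023-31063093, minus strand: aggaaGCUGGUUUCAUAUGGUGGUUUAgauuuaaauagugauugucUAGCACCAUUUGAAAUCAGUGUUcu
Mir29b-2, chr1:195037040-195037120, plus strand: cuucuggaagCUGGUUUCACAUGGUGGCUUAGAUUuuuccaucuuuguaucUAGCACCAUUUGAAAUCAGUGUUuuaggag
Mir29c, chr1:195037547-195037634, plus strand: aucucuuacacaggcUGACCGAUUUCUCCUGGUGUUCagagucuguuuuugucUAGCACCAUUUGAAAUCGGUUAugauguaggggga

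The genes lie as 2 neighbouring pairs. Mir29a and Mir29b-1 are 275 bases apart on chromosome 6, and Mir29b-2 and Mir29c are 426 bases apart on chromosome 1.

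The deposited value is a normalized fluorescence intensity without unit. All values of an array were whole multiples of its smallest value, called a step here, and an intensity of 1 was 447 steps for MSC-MVs and 471 steps for EPO-MVs. The median entry stood at 87 steps on the MSC-MV array and 97 on the EPO-MV array. Steps show how far a value lies above the smallest the array gave, and ratios were taken from the normalized intensities as EPO-MV over MSC-MV. Of the 7 mesenchymal stromal marker entries with values (miR-143-3p, miR-145a-5p, both arms of miR-199a, miR-214-3p, miR-21a-5p and miR-22-3p), all were among the 208 brightest entries by mean log2 intensity of both arrays, at 3313 steps or more. Of 7 blood cell marker entries, 4 were among these 208 too, one of them miR-142-3p with 21839 steps in MSC-MVs and 20714 in EPO-MVs.

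All 7 miR-29 entries had a lower intensity in EPO-MVs than in MSC-MVs, whereas 43.9% of the 831 entries did. The differences were modest, with a median log2 ratio of -0.38 over the 7 entries against 0.05 over all entries. At a limit of 1.5-fold, the one used in the study, 2 of the 7 were lower in EPO-MVs and 0 were higher. Over all entries, 7.58% were lower and 17.8% were higher at that limit. At a limit of 1.2-fold, 4 of the 7 were lower, as were 21.9% of all entries. The arms of 1 hairpin and the near-identical guides are not independent of each other, so 7 entries do not amount to 7 separate observations. Under quantile normalization and lowess, miR-29c-3p had no lower value in EPO-MVs, with log2 ratios of 0 and 0.0070, while the other 6 entries stayed below 0.

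**Figure D1:**
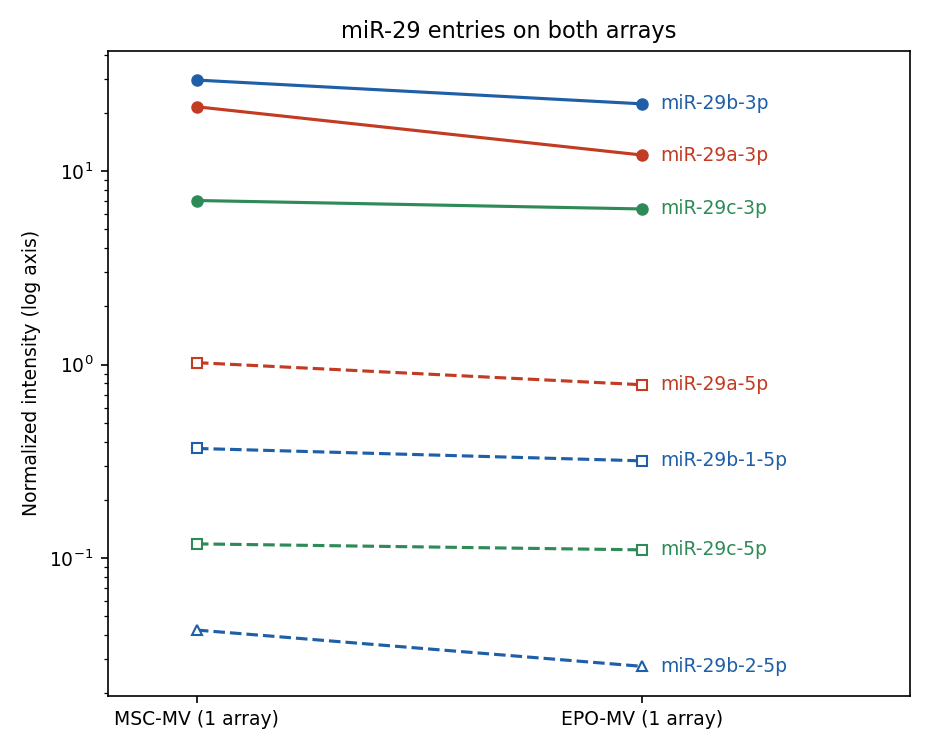
Normalized intensity (log axis) of the 7 miR-29 entries on the MSC-MV array (left) and the EPO-MV array (right), 1 array each. Filled circles with solid lines are -3p arms, open squares or triangles with dashed lines are -5p arms, and each of the 7 lines slopes down from MSC-MVs to EPO-MVs, most steeply for miR-29a-3p.

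Among the guides, miR-29a-3p had the lowest ratio. Its intensity was 21.5 in MSC-MVs (9625 steps) and 12.1 in EPO-MVs (5708 steps), a ratio of 0.563 or a log2 ratio of -0.83, which is 1.78-fold lower in EPO-MVs. In brightness it was 20th of 831 on the MSC-MV array and 28th on the EPO-MV array. Among the 208 brightest entries its ratio was the third lowest, after miR-365-3p at 0.539 and miR-301a-3p at 0.553. Of the 208 entries 7.69% were at least 1.5-fold lower, their log2 ratios had a median of -0.09 and their standard deviation across entries was 0.30. This standard deviation describes entries on a pair of arrays and is not a replicate error.

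The guide miR-29b-3p is the product of both gene pairs. It had an intensity of 29.6 in MSC-MVs (13228 steps) and 22.3 in EPO-MVs (10500 steps), which gave a ratio of 0.753 and a log2 ratio of -0.41. It was therefore lower in EPO-MVs by 1.33-fold and inside the 1.5-fold limit, with 17.8% of the 208 brightest entries at a lower ratio.

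The third guide, miR-29c-3p, was nearly level. Its intensity was 7.06 in MSC-MVs (3155 steps) and 6.38 in EPO-MVs (3006 steps), a ratio of 0.904 and a log2 ratio of -0.15. It ranked 49th in brightness on both arrays, and 41.8% of the 208 brightest entries had a lower ratio.

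The guides share their seed but differed in their ratios. The log2 ratio of miR-29a-3p was lower by 0.68 than that of miR-29c-3p (1.61-fold) and by 0.42 than that of miR-29b-3p (1.34-fold), and that of miR-29b-3p was lower by 0.26 than that of miR-29c-3p. These differences between entries are not altered by any constant factor applied to an array. How much RNA of one guide binds the probe of another was not tested. Added up, the 3 guides had an intensity of 58.2 in MSC-MVs and 40.8 in EPO-MVs, a ratio of 0.701. They made up 2.71% of the summed intensity of the MSC-MV array and 2.08% of that of the EPO-MV array. Since probes differ in brightness for the same amount of RNA, such a sum weighs the guides by their probes and not by their copies.

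The passenger arms were dimmer entries, and the dimmest of them carried the only other difference of at least 1.5-fold. For miR-29a-5p the intensity was 1.02 in MSC-MVs (458 steps) and 0.788 in EPO-MVs (371 steps), a ratio of 0.769. It was lower by 1.30-fold, and 10.1% of the 208 entries next in brightness had a lower ratio. The log2 ratios of both arms of miR-29a, -0.83 for the -3p arm and -0.38 for the -5p arm, lay 0.45 apart.

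For miR-29b-1-5p, the arm that marks the chromosome 6 copy of miR-29b, the intensity was 0.369 in MSC-MVs (165 steps) and 0.318 in EPO-MVs (150 steps), a ratio of 0.863. For miR-29b-2-5p, which marks the chromosome 1 copy, it was 0.0425 in MSC-MVs (19 steps) and 0.0276 in EPO-MVs (13 steps), a ratio of 0.649. That ratio rests on 6 steps. With 1 more step in EPO-MVs it would be 0.699 and with 1 step fewer in MSC-MVs 0.685, both inside the 1.5-fold limit. It is one of the 207 dimmest entries, whose log2 ratios had a standard deviation of 1.26 across entries.

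For miR-29c-5p the intensity was 0.119 in MSC-MVs (53 steps) and 0.110 in EPO-MVs (52 steps). The ratio of 0.931 was the closest to 1 of the 7, and that of miR-29c-3p was the next closest with the deposited values. After quantile normalization and lowess the log2 ratio of miR-29c-5p was -0.28, further from 0 than that of miR-29b-3p. By gene pair, the entries made only on chromosome 6 (miR-29a-3p, miR-29a-5p and miR-29b-1-5p) had log2 ratios of -0.83, -0.38 and -0.21, and those made only on chromosome 1 (miR-29b-2-5p, miR-29c-3p and miR-29c-5p) had -0.62, -0.15 and -0.10. The ranges of the 2 pairs overlapped.

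**Figure D2:**
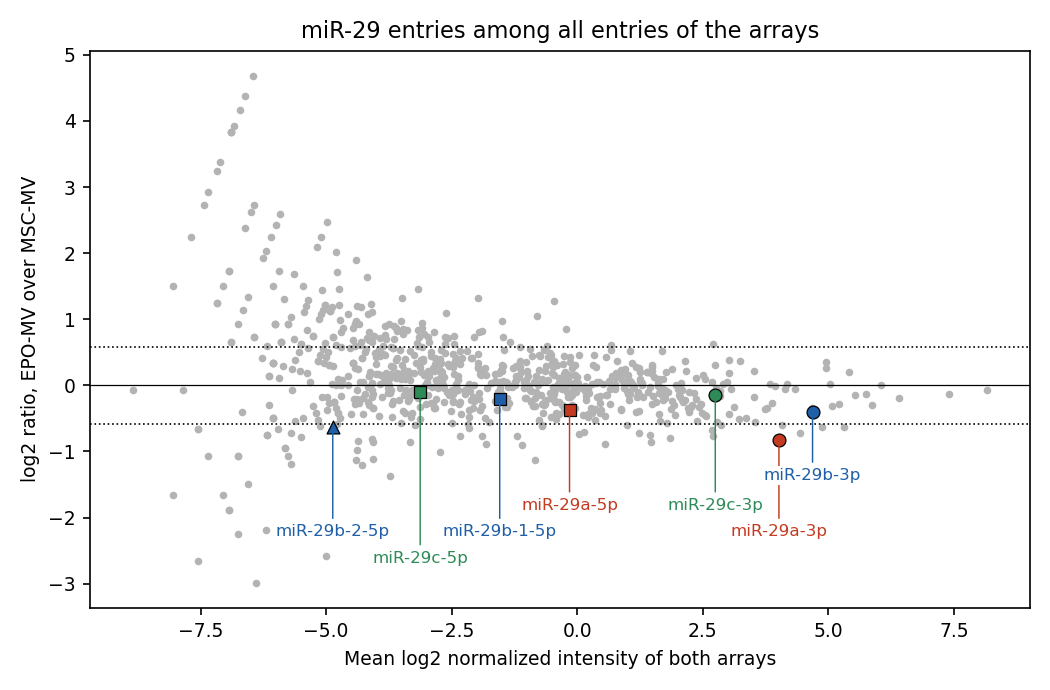
Log2 of the EPO-MV over MSC-MV intensity against the mean log2 intensity of both arrays for all 831 entries, with the 7 miR-29 entries in colour (circles -3p arms, squares and triangles -5p arms). Dotted lines mark 1.5-fold in either direction, and miR-29a-3p lies below the lower line at high intensity, where the other entries spread little, while miR-29b-2-5p lies just below it at low intensity, where they spread widely.

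The direction of the ratios varied with brightness over the whole of the arrays. Of the 208 brightest entries 63% were lower in EPO-MVs by any amount, against 31.9% of the 207 dimmest. Of the entries that differed by at least 1.5-fold, 70.1% were higher in EPO-MVs with the deposited values and 48.9% after lowess, and quantile normalization gave 94 higher and 94 lower entries. For miR-29a-3p the log2 ratio was -0.64 under lowess and -0.54 under quantile normalization, the latter a difference of less than 1.5-fold, and for miR-29b-3p it was -0.20 and -0.07. The part of this trend with brightness in the ratios of the guides was not tested beyond these values.

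**Figure D3:**
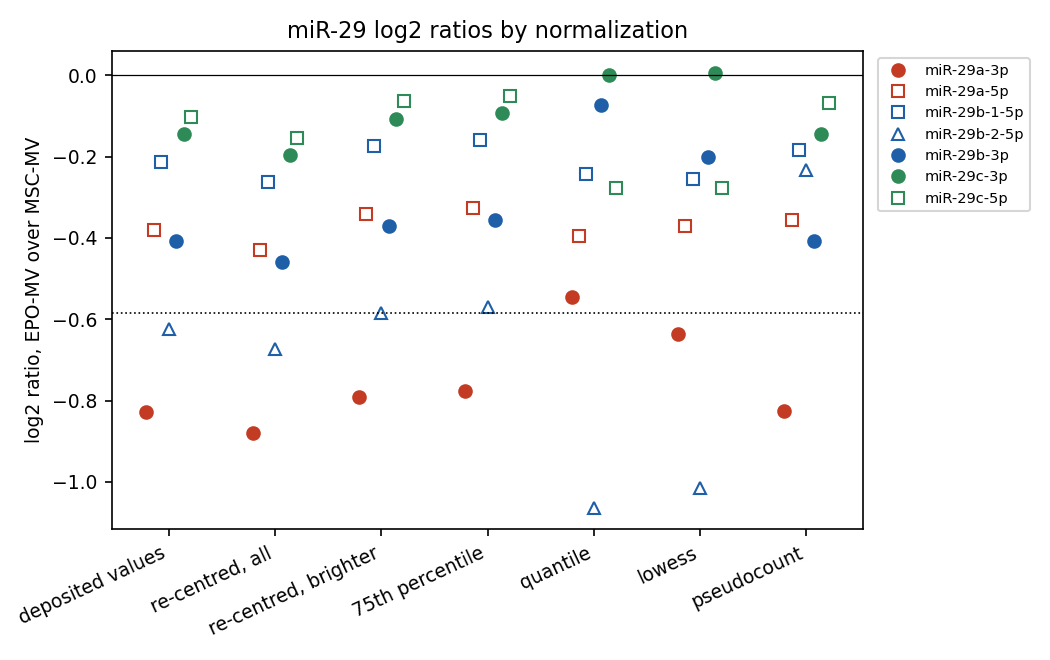
Log2 of the EPO-MV over MSC-MV intensity of each miR-29 entry with the deposited values and under 6 other normalizations or offsets (circles -3p arms, squares and the triangle of miR-29b-2-5p -5p arms). The dotted line marks 1.5-fold lower in EPO-MVs, which miR-29a-3p passes in all settings shown except quantile normalization, where it lies at -0.54.

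The ratios were also compared with base composition. Mature sequences could be matched by name for 680 of the 831 entries and for 165 of the 208 brightest. Over these 165, the GC share and the log2 ratio had a Pearson correlation of 0.29 and a Spearman correlation of 0.28, as a description of entries that share both arrays. The GC share was 40.9% for miR-29a-3p, 34.8% for miR-29b-3p and 36.4% for miR-29c-3p, all below the median of 45.5% over the 165. The median log2 ratio was -0.16 for the 38 entries with a GC share under 40%, -0.14 for the 62 entries from 40% to under 50% and -0.02 for the 65 entries at 50% or more. Of the guides, miR-29a-3p had the highest GC share and the lowest ratio. The part of base composition in the result was not tested.

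The spread between probes for the same miRNA gives a rough measure of precision. Among entries brighter than the median, 7 pairs of entries shared a miRNA name, and their log2 ratios differed by a median of 0.20 and by 0.55 at most. Some of these entries list further miRNAs besides the shared one. Most of the pairs hold an entry much dimmer than the guides. In the widest pair 1 entry had 140 steps in MSC-MVs and 155 in EPO-MVs. The pair with both entries among the 208 brightest, that of miR-101a-3p, differed by 0.096. With the deposited values the difference of 0.68 between miR-29a-3p and miR-29c-3p was above the range of the 7 pairs. The differences of 0.42 and 0.26 between the other guides were within this range, which is set by dimmer entries. With the same pairs recomputed, a step chosen after seeing the data, the difference was 0.64 against a highest pair difference of 0.61 after lowess, and 0.54 against 0.75 after quantile normalization, where it lay within the range.

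Other families with entries among the 208 brightest were set beside miR-29, without matching for brightness. All 5 miR-30 entries among them, at 2086 steps or fewer in MSC-MVs, were dimmer than miR-29c-3p with 3155. In the other sets most of these entries were dimmer than miR-29c-3p too. Among the 208 brightest entries the 3 guides of miR-29 had a median log2 ratio of -0.41, and 9 entries of let-7 and miR-98, a family that limits growth and TGF-β receptor levels, had -0.40. All of these were below 0, as were 63% of the 208, and 2 of the 9, let-7f-5p and let-7d-5p, were at least 1.5-fold lower, as were 7.69% of the 208. The 5 entries of miR-30, which is abundant in kidney epithelium, had a median of -0.25, with miR-30b-5p at -0.72 and the others at -0.27 or above. The 7 entries of miR-26, miR-101, miR-148 and miR-152, regulators of chromatin enzymes, had a median of -0.30, none reached 1.5-fold, and miR-26a-2-3p at 0.45 was the only one of these bright entries above 0. No test separates miR-29 from these families.

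**Figure D4:**
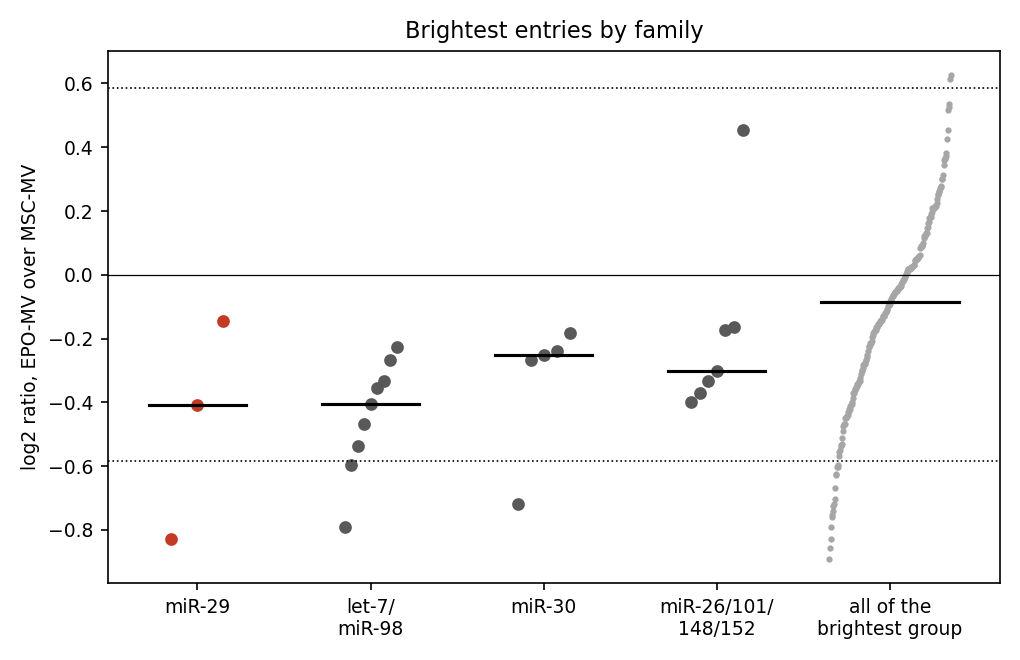
Log2 of the EPO-MV over MSC-MV intensity for those of the 208 brightest entries that belong to miR-29, to let-7 and miR-98, to miR-30, or to miR-26, miR-101, miR-148 and miR-152, and for all 208 entries. Black bars are medians and dotted lines mark 1.5-fold, and the median of miR-29 (-0.41) lies beside that of let-7 and miR-98 (-0.40), with miR-29a-3p at -0.83 the lowest point of the 4 families.

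By ratio alone, the bright entries nearest to miR-29a-3p were miR-301a-3p, let-7f-5p and miR-365-3p, all within 0.062 of its log2 ratio. Those nearest to miR-29b-3p were miR-19b-3p, let-7b-5p and the entry of miR-101a-3p with miR-101c, and those nearest to miR-29c-3p were miR-467g, miR-451a and miR-669b-3p. With 2 arrays, this likeness rests on 1 ratio per entry.

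The other miRNAs with published roles in fibrosis did not share 1 direction. Of 18 entries described as protective, 14 were lower in EPO-MVs by any amount, 2 were at least 1.5-fold lower (miR-30b-5p, ratio 0.608, and let-7d-5p, 0.662) and 4 were at least 1.5-fold higher, with a median log2 ratio of -0.28. Over all entries these shares were 43.9%, 7.58% and 17.8%, so the counts at 1.5-fold were near the background. The 4 higher entries were miR-200b-3p (ratio 1.50), miR-200c-3p (2.85) and miR-141-3p (1.90), which hold cells in an epithelial state, and miR-133b-3p (1.54), a muscle miRNA. The ratio of miR-200b-3p would be 1.48 with 1 step fewer in EPO-MVs, and miR-429-3p, of the same family, went the other way with 8 steps in MSC-MVs and 6 in EPO-MVs (ratio 0.712). Each of the 4 higher entries had between 13 and 68 steps in EPO-MVs, so they belong to the dim entries.

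Of 12 entries described as promoting fibrosis, 8 were lower by any amount, 3 were at least 1.5-fold lower and 2 at least 1.5-fold higher, with a median log2 ratio of -0.30, where the shares over all entries were 43.9%, 7.58% and 17.8%. The lower ones were miR-34a-5p (3639 steps in MSC-MVs and 2412 in EPO-MVs, ratio 0.629), miR-132-3p (4 and 2 steps) and miR-216a-5p (6 and 3 steps), so that 2 of the 3 rest on 6 steps or fewer. The higher ones were miR-192-5p, a miRNA of kidney epithelium, with 7 steps against 1 step in MSC-MVs, and miR-377-3p with 45 against 23 steps. The bright miR-21a-5p, the best known miRNA of fibrosis, had 40369 steps in MSC-MVs and 37150 in EPO-MVs, a ratio of 0.873. Of the bright entries, those among the 208 brightest, all 12 of the first list and all 4 of the second had a lower intensity in EPO-MVs, as did 63% of all 208. Except for miR-19b-3p, the 12 are miR-30, let-7 and miR-101a-3p entries already counted with their families. On the second list, miR-21a-5p, miR-214-3p and miR-199a-5p are also stromal markers. These counts are therefore not independent of each other.

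Marker miRNAs of cell types differed in direction. The 7 stromal marker entries were all lower in EPO-MVs, with a median log2 ratio of -0.45, 1 at least 1.5-fold lower (miR-143-3p, ratio 0.648) and a summed intensity of 269.5 in MSC-MVs and 211 in EPO-MVs. All 7 are among the 208 brightest entries, of which 63% were lower by any amount and 7.69% at least 1.5-fold lower. The 7 blood cell marker entries had a summed intensity of 80.0 in MSC-MVs and 67.6 in EPO-MVs, with 4 of 7 lower. Of the 7, miR-223-3p, a miRNA of myeloid cells, was at least 1.5-fold lower (ratio 0.659), and miR-144-3p, a miRNA of red cell precursors, was at least 1.5-fold higher (87 steps in MSC-MVs and 160 in EPO-MVs, ratio 1.75). The entries of miR-150-5p and miR-486-5p had ratios of 1.36 and 1.34. Those of the brighter miR-142-3p, miR-142-5p and miR-451a were lower in EPO-MVs, with ratios of 0.900, 0.921 and 0.902. Over all entries 43.9% were lower by any amount, 7.58% at least 1.5-fold lower and 17.8% at least 1.5-fold higher. The liver marker miR-122-5p was at 7 steps in MSC-MVs and 8 in EPO-MVs. Of the neural markers, miR-9-5p was at 15 and 30 steps and miR-124-3p at 73 and 99 steps. The 3 epithelial marker entries, those of miR-200 and miR-141 given before, had ratios of 1.5 or more, with miR-200b-3p at the limit itself, while miR-429-3p of the same family, which is not on the marker list, had 0.712. These 3 had 68 steps or fewer. Among the dim entries high ratios were common, with 96 of the 207 dimmest and 39 of the next 208 at least 1.5-fold higher. For miR-200c-3p the paper also reports a significant rise in EPO-MVs from replicate measurements. Those measurements are not among the array values used here. The muscle markers miR-1a-3p and miR-206-3p had ratios of 1.07 and 0.991. In RNA of vesicles collected in bulk, fewer vesicles of a cell type and less of a miRNA per vesicle cannot be told apart, and the part of these cell types in the miR-29 ratios was not tested. The paper names the fetal bovine serum of the cultures as a limitation and holds its influence on both kinds of MVs to be similar. The part of serum in these values was not tested.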

How the data were processed

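RNA of MVs was labelled with Hy3, hybridized to the miRCURY LNA Array and scanned with an Axon GenePix scanner, 1 array per condition. Per the labels and methods, the authors averaged repeated spots of a miRNA, based the factor for median normalization on those reaching an intensity of 30 in each sample, and the deposited values are these normalized intensities on a linear scale for 831 entries. Background correction and the channel read are not given in the sources used here. Because 1 array was used per condition, the number of arrays limits the precision, and no p-value was computed.

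Entries were selected by name. The EPO-MV over MSC-MV intensity ratio was computed without pseudocount or filter, and 1.5-fold was the limit in either direction. Steps were obtained by multiplying each value by 471 (EPO-MVs) or 447 (MSC-MVs), which gave whole numbers to within 0.0001. Entries were divided into 4 groups of 207 or 208 by mean log2 intensity. Alternatives were limits of 2 and 1.2, re-centring on the median of the entries (all, or those brighter than the median), quantile normalization, scaling to the 75th percentile, lowess (span 0.4, 3 iterations), a pseudocount of 0.0573 (25th percentile of all values), and at least 30 or 60 steps on both arrays.

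The named entries were all members, a list of fibrosis miRNAs, cell type markers, and the 3 entries of the same intensity group nearest in log2 ratio to each guide; entries at the extremes of a set were named after their values were seen. The members and lists were chosen with earlier results of these data known. Sequences and coordinates came from RefSeq (GRCm38.p6). The counting was tested on simulated arrays without noise and without very dim entries, which checks the counting itself and not the precision of the real values. Calculations were done in Python 3.11.15 (numpy 2.4.6, pandas 2.3.3, statsmodels 0.14.6, scipy 1.17.1), and plots were drawn with matplotlib 3.10.9.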

Additional observations from a re-analysis of the deposited data

How the results depend on the processing

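The number of miR-29 entries at least 1.5-fold lower in EPO-MVs, 2 with the deposited values, was 0 at a limit of 2-fold, when 2.53% of all entries were lower, and 4 at a limit of 1.2-fold (miR-29a-3p, miR-29b-3p, miR-29a-5p and miR-29b-2-5p), when 21.9% of all entries were lower. It was 1 with re-centring on the brighter entries, scaling to the 75th percentile, the pseudocount, and at least 30 or 60 steps on both arrays, each time miR-29a-3p, while 6.5%, 6.26%, 3.01%, 4.89% and 5.4% of all entries kept were lower in that order, and 1 with quantile normalization, then miR-29b-2-5p, with 11.3% of all entries lower. It was 2 with re-centring on all entries and with lowess, when 8.54% and 11.6% of all entries were lower. No entry was higher by that limit under any of these 10 alternatives. The median log2 ratio of the entries, -0.38, was -0.43 with re-centring on all entries, -0.34 on the brighter entries, -0.33 with scaling to the 75th percentile, -0.28 with quantile normalization and with lowess, -0.23 with the pseudocount and -0.30 with at least 30 steps, which left 6 entries. The cause was not tested, except that the filters remove dim entries and the pseudocount shrinks their ratios by construction. The deposited values hold no measure of background, and whether an entry lies above it is unknown. No paired analysis was possible because there was only 1 array of each kind.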

Other observations

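Among the 208 brightest entries, 6 seeds were shared by at least 3 matched entries, and the median log2 ratio was below 0 for each of them. The seed of miR-29 had the third lowest median (-0.41), after that of miR-99 and miR-100 (ACCCGUA, 3 entries, -0.53) and that of miR-15, miR-16 and miR-195 (AGCAGCA, 4 entries, -0.46). With the deposited values it had the widest range between entries, 0.68 on the log2 scale, but hardly wider than 0.67 for the 10 entries with the let-7 seed (GAGGUAG). The ranges of the seeds were not compared under other normalizations. Entries without a matched sequence, such as miR-30b-5p, were not counted for any seed. How far RNA of one member binds the probe of another was not tested.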
